A study of Mus musculus with 8 samples.

Results

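Cell cycle and DNA replication genes were followed in whole mouse kidneys with and without the Alport mutation. The 40 genes were taken from a fixed list of cyclins, cyclin-dependent kinases, replication factors and mitotic proteins. Of these, 38 had a probe set that names 1 gene, out of 22180 genes measured in the series. Ccne2 was covered only by a probe set shared with Ints8, and Ccnb1 by none that names it alone, so neither enters a count of expression. Kidneys of 3 Col4a3-/-OPN-/- mice (double mutants) and 3 Col4a3-/- mice (single mutants) were set against those of 2 wild type mice, all aged 2 months, with 1 array per mouse. The double mutants lack the same collagen gene as the single mutants and in addition osteopontin, a secreted matrix protein and cytokine. The labels give no strain and no sex, and describe neither allele further. Col4a3 codes for 1 of the collagen IV chains in the filtration membrane of the glomerulus, and mice without it are used as a model of Alport syndrome, an inherited kidney disease.

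In a resting adult kidney few cells divide, and after injury tubule cells and infiltrating or resident interstitial cells can re-enter the cycle. D-type cyclins with Cdk4 or Cdk6 act in G1, and cyclin E with Cdk2 at the entry to S phase. The MCM helicase is loaded on DNA by Cdc6 and Cdt1 and, with Cdc45, unwinds it for polymerases that are held by the Pcna clamp. Cyclin A, cyclin B and Cdk1 then drive S phase and mitosis, with kinases, motors and checkpoint proteins that build the spindle. Transcription of these genes comes in waves. E2F factors act on many replication genes. The DREAM and MuvB complexes act on mitotic genes through a short element close to the start, the cell cycle homology region (CHR). The CCAAT box is a separate short element often found near it.

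Each probe set has 1 deposited log2 expression value per array. Array medians ran from 5.18 to 5.25. Precision is limited by the few arrays per group. The sex of each mouse was taken from its array, by Xist against Uty, Kdm5d and Eif2s3y of the Y chromosome. Double mutants 1 and 2 and single mutants 1 and 3 read as female, and double mutant 3, single mutant 2 and both wild type mice as male. Comparisons are therefore given without a term for sex and, where named, with one, which takes the sex difference of the mutants as valid for wild type, where no female was measured. Col4a3 measured 6.82, 6.13 and 7.60 in double mutants, 7.65, 7.67 and 6.60 in single mutants, and 8.77 and 8.42 in wild type, so both mutant groups lay below wild type. Kidney markers such as Slc34a1, Umod, Lrp2 and Aqp2 were present on every array. In whole tissue, more dividing cells and more RNA per cell cannot be told apart.

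Most of the genes were dim. The 1105 olfactory receptor genes, which a kidney is not known for, had a median log2 level of 4.42 and a 95th percentile of 5.07. The mean of 35 of the 38 genes was above that 95th percentile, and Cdc6, Bub1 and Birc5 were at or below it. By group, 35 genes lay above it in double mutants, 35 in single mutants and 31 in wild type. The 7 that were not above it in wild type were Top2a, Cdk1, Cdc6, Bub1, Bub1b, Birc5 and Prc1, and their differences from wild type are limited by that dim level. Only 7 genes had a mean over 6.64, the 75th percentile of the probe set means, namely Ccnd1, Ccnd2, Ccnd3, Cdk4, Cdk6, Pcna and Rrm1. Means ran from 4.67 for Bub1 to 9.50 for Ccnd1, with a median of 5.65 against 5.61 over all genes.

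**Figure D1:**
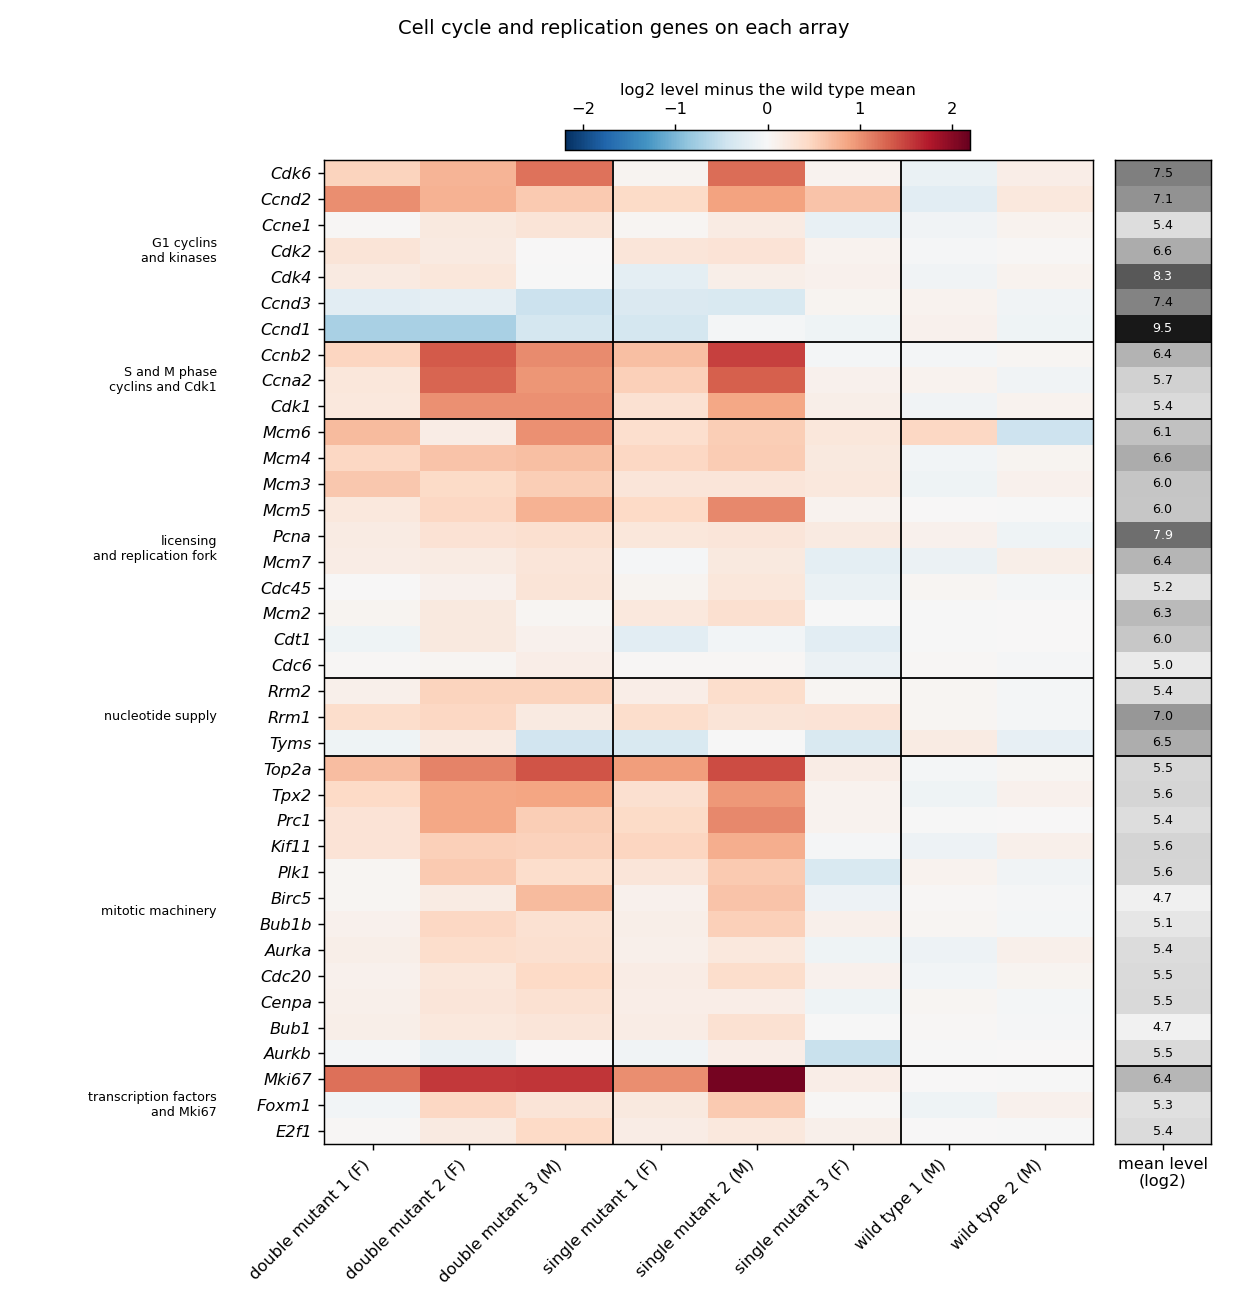
Log2 difference of each of the 38 measured genes on each of the 8 arrays from the wild type mean, by colour, with the genes in rows grouped by role and the arrays in columns from double mutant to wild type, and the mean log2 level over the 8 arrays in the grey strip. Single mutant 2 and double mutants 2 and 3 are high for most genes, and single mutant 3 is close to wild type for many.

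Most of the genes had means above wild type in both mutants, by small amounts, and the largest differences were in Mki67, Top2a and Ccnb2. The difference was above 0 for 34 of 38 genes in double mutants, against 45.5% of all genes, and for 31 in single mutants, against 46.5%. The median difference from wild type was 0.29 in double and 0.21 in single mutants on the log2 scale, against -0.01 over all genes in each comparison. With the sex term the medians were 0.42 and 0.33, and 35 and 34 of 38 genes had a difference above 0. The single mutant median depended on single mutant 2, without which it was 0.12, with 26 of 38 genes above 0. Among male arrays alone the medians were 0.37 in double and 0.37 in single mutants. Both comparisons share the wild type arrays.

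The arrays of the 2 mutant groups lay above both wild type arrays for different numbers of genes. All 3 double mutants exceeded both wild type arrays for 25 genes (65.8%, against 15.0% of all genes) and all 3 single mutants for 16 genes (42.1%, against 15.5%). All 6 mutant arrays exceeded both wild type arrays for 15 genes, or 39.5%, where 9.24% of all genes did so. These were Mki67, Top2a, Ccna2, Ccnd2, Cdk1, Cdc20, Mcm3, Mcm4, Mcm5, Pcna, Rrm1, Rrm2, Bub1b, E2f1 and Prc1. No gene was lower on all 6 mutant arrays, where 11.7% of all genes were. Leaving out each array in turn, 15 to 22 genes were higher on every mutant array kept than on any wild type array kept. The share of all genes rose to 18% and 16.4% without wild type 1 and wild type 2. Some margins were narrow, as for Rrm2, whose lowest mutant and highest wild type value were 5.244 and 5.238.

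Without the sex term, none of the 38 genes passed an adjusted p of 0.05 in limma in either comparison with wild type. Of all genes, 0.0451% passed in double mutants and 0.0316% in single mutants. At an unadjusted p under 0.05, 10 genes were higher in double mutants (26.3%, against 6.43% of all genes) and 5 in single mutants (13.2%, against 6.32%). By the same measure Ccnd1 alone was lower in double mutants (2.63%, against 7.9% of all genes) and none in single mutants (against 8.75%). With the sex term, 7 genes rose in double mutants, or 18.4%, where 2.08% of all genes did. They were Top2a, Cdk6, Cdc20, Mcm3, Mcm4, Mcm5 and Birc5. In single mutants 3 genes rose, namely Cdk6, Mcm5 and Birc5, or 7.89%, where 2.05% of all genes did. None fell with the sex term, where 4.17% and 4.86% of all genes fell in double and single mutants. These calls were not stable to the loss of 1 array. Without each array in turn, 0 to 3 genes were called in double mutants, and none without double mutant 1, wild type 1 or wild type 2. In single mutants 0 to 4 were called, and none without double mutant 1, single mutant 1, single mutant 2, wild type 1 or wild type 2. Calls over all genes moved as well. In double mutants 13 rose and 15 fell without double mutant 1, 72 and 261 without wild type 1, and 962 and 714 without double mutant 3. In single mutants 2 rose and 6 fell without double mutant 1, and 1176 and 1191 without double mutant 3. Without wild type 2, none of all genes was called in either mutant.

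**Figure D2:**
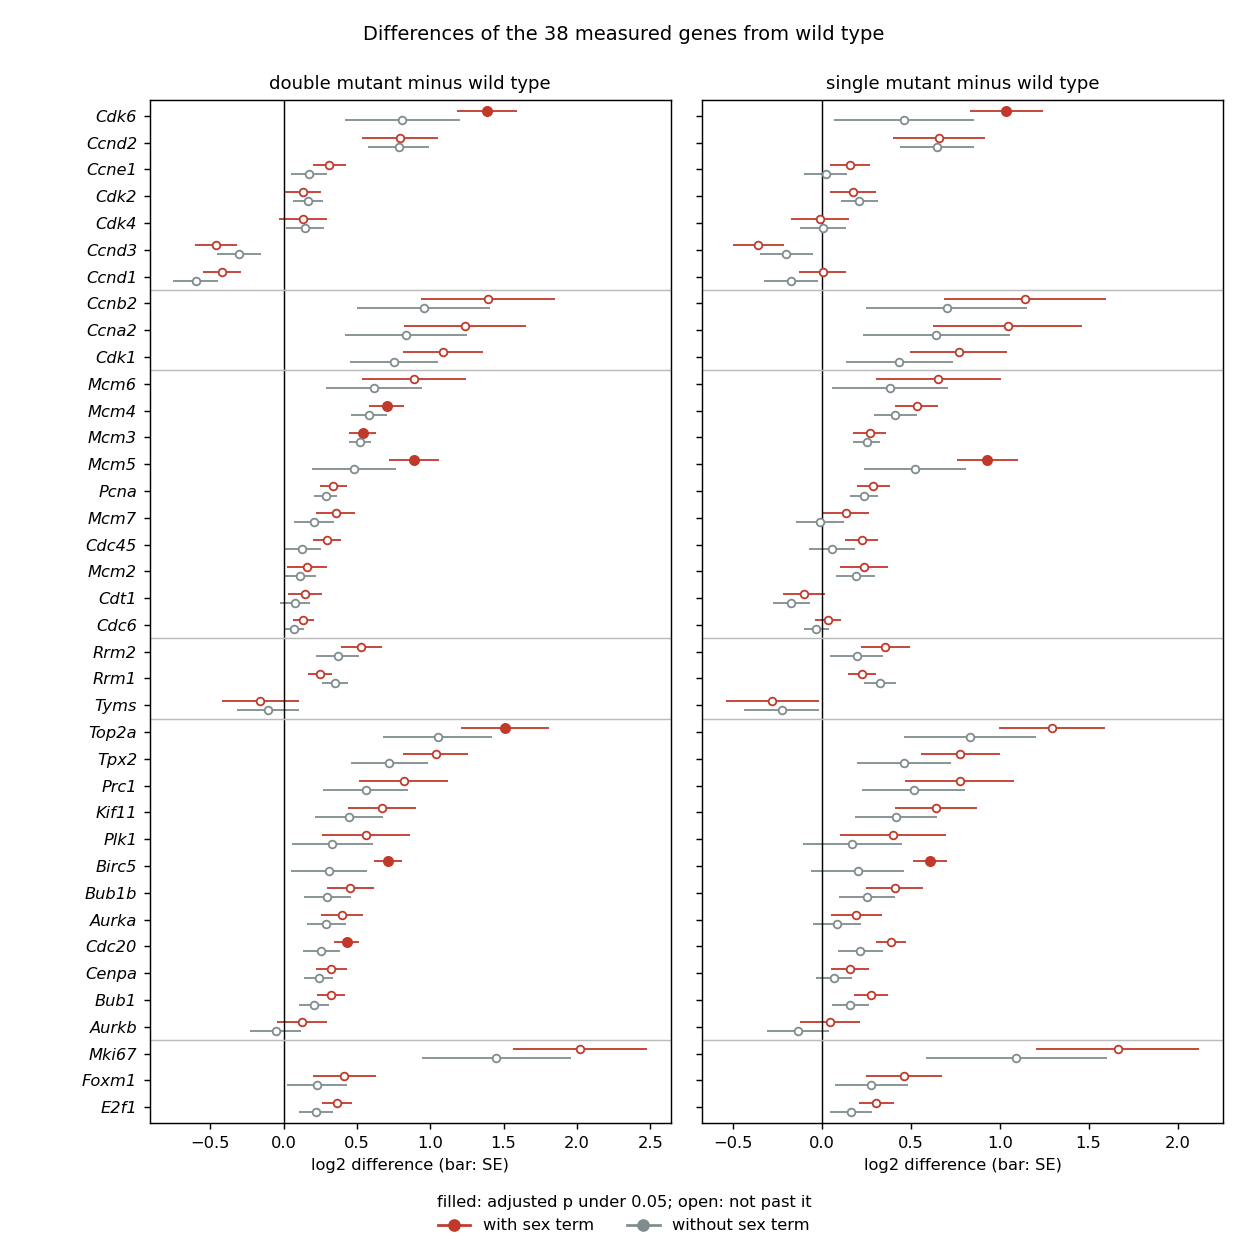
Log2 difference from wild type with its standard error for each of the 38 genes, double mutants in the left panel and single mutants in the right, in grey without and in red with the sex term. Filled points have an adjusted p under 0.05, which 7 genes reached in double mutants and 3 in single mutants, all with the sex term.

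The start-site sequences of 6 of these genes are shown here. They set the short elements of mitotic genes (the first 4) beside those of 2 MCM genes (the last 2). They are from RefSeq on GRCm38.p6, written 5′ to 3′ on the gene's strand. Capitals mark matches to the CHR (TTTGAA), the CCAAT box (CCAAT, or ATTGG where it lies on the other strand) and an E2F element (TTTGGCGC or TTCCCGCC, or GCGCCAAA on the other strand). Mki67, the gene of the proliferation antigen Ki-67, holds its 2 CHR matches at positions -116 and -98 from the start.
Mki67, chr7:135716450-135716579, minus strand: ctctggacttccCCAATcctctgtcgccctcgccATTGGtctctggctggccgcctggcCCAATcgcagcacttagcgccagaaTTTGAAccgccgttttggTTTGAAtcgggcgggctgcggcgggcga
Ccnb2, chr9:70421545-70421654, minus strand: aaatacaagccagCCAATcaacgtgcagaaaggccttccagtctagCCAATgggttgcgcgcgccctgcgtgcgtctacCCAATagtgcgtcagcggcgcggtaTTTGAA
Cdk1, chr10:69352913-69353012, minus strand: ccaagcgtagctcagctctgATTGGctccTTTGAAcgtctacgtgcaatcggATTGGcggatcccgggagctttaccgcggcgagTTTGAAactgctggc
Prc1, chr7:80294376-80294475, plus strand: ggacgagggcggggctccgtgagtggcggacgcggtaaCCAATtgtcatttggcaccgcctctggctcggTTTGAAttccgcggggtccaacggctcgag
Mcm5, chr8:75109349-75109508, plus strand: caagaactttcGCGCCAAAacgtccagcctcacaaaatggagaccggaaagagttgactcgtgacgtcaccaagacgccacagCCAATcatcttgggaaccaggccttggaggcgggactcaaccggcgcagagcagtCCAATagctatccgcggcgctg
Mcm6, chr1:128359706-128359825, minus strand: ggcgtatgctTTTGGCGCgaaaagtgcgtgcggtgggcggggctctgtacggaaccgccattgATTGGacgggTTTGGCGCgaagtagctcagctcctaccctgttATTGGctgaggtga

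The first 4 sequences carry CCAAT boxes upstream of a CHR, and the last 2 carry an E2F element and CCAAT boxes with no CHR. Windows of 300 bases, 250 before to 50 after the start, were found for 32 of the 40 genes (35 windows). The 32 include Ccnb1, whose expression was not measured. Both strands were searched, and no match overlapped a match to another motif. Among the mitotic genes, the S and M phase cyclins, Cdk1 and Mki67, 12 of 15 windows (80.0%) held both a CHR and a CCAAT box, where 6.95% of all 32851 windows did. These 15 windows are of 14 genes, as Prc1 has 2 overlapping windows that hold the same matches. Of the 10 windows of 9 licensing and replication fork genes, with 2 for Mcm7, 4 (40%) held an E2F element, against 2.68% of all windows. A CHR was held by 2 (20.0%), against 17.9%. Not all MCM genes were alike, as Mcm2 held a CHR and a CCAAT box but no E2F element. The 6 windows of 5 G1 cyclins and kinases held neither a CHR nor an E2F element, and 2 (33.3%) held a CCAAT box, against 37.4% of all windows. Genes with small differences, such as Aurka, Cenpa and Plk1, also held a CHR and a CCAAT box. A match is a description of the letters and was not tested for binding.

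**Figure D3:**
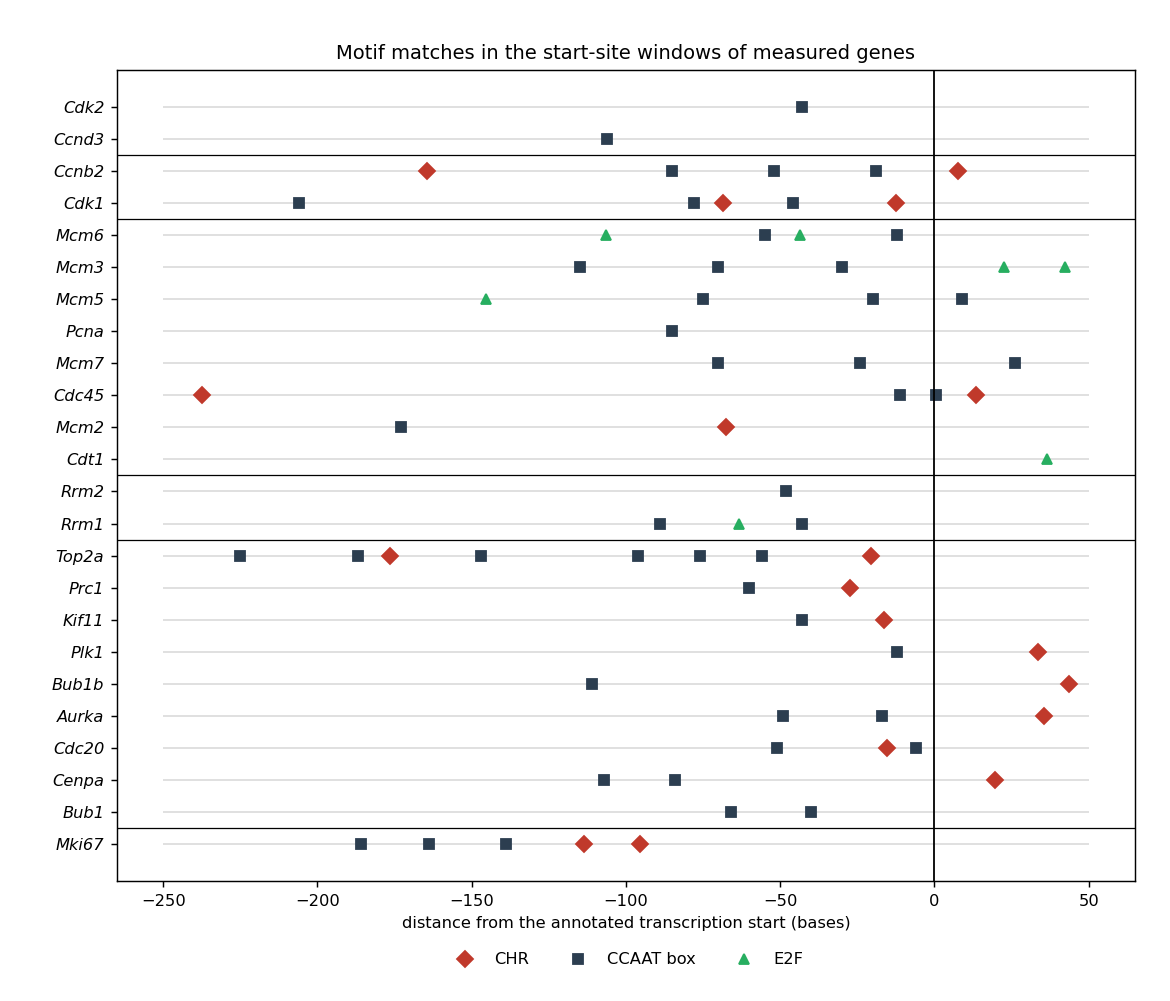
Position of each motif match in bases from the annotated transcription start, 1 gene per line and grouped by role, for measured genes with at least 1 match. CHR matches (diamonds) lie mostly with the mitotic genes, Cdk1, Ccnb2 and Mki67, and E2F matches (triangles) with Mcm3, Mcm5, Mcm6, Cdt1 and Rrm1.

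Among the G1 genes only Cdk6 passed the test, with the sex term. All mutant values of Ccnd2 were above wild type, and all double mutant values of Ccnd1 and Ccnd3 were below it, without passing the test. Cdk6, a kinase partner of D-type cyclins, measured 7.50, 7.76 and 8.20 in double mutants, 7.07, 8.25 and 7.09 in single mutants, and 6.86 and 7.16 in wild type. All 3 double mutants exceeded wild type, but among single mutants only the male did. With the sex term Cdk6 rose by 1.39 (SE 0.21, adjusted p = 0.0295 in limma) in double mutants and by 1.04 (SE 0.21, adjusted p = 0.046) in single mutants. Without it the differences were 0.81 (SE 0.39, adjusted p = 0.419) and 0.46 (SE 0.39, adjusted p = 0.643). Ccnd2, a D-type cyclin, measured 7.57, 7.32 and 7.12 in double mutants, 6.97, 7.44 and 7.19 in single mutants, and 6.32 and 6.79 in wild type. Its mutant arrays all lay above wild type, with differences of 0.78 (SE 0.21, adjusted p = 0.184) and 0.65 (SE 0.21, adjusted p = 0.236) and similar ones with the sex term.

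Ccnd1, a D-type cyclin and the brightest of the genes, was 1 of 4 with a mean below wild type in double mutants, besides Ccnd3, Tyms and Aurkb. It measured 9.09, 9.08 and 9.41 in double mutants, 9.40, 9.76 and 9.70 in single mutants, and 9.90 and 9.69 in wild type. The double mutants lay below wild type without overlap, by -0.60 (SE 0.15, adjusted p = 0.172) and, with the sex term, by -0.42 (SE 0.13, adjusted p = 0.119). In single mutants the difference of Ccnd1 was -0.17 (adjusted p = 0.648) and 0.0041 with the sex term. Ccnd3 likewise measured 7.33, 7.38 and 7.09 in double mutants, 7.25, 7.24 and 7.64 in single mutants, and 7.65 and 7.50 in wild type. Its difference in double mutants was -0.30 (adjusted p = 0.422), and -0.46 (adjusted p = 0.118) with the sex term. Ccnd1 and Ccnd3 were the only genes with a lower value in all double mutants than in both wild type mice (5.26%, against 19.1% of all genes). Ccne1, Cdk2 and Cdk4 differed from wild type by at most 0.21 in either mutant without the sex term, and none passed the test. The shared Ccne2 and Ints8 probe set measured 4.84, 5.15 and 4.96 in double mutants, 4.91, 5.20 and 4.89 in single mutants, and 4.91 and 4.88 in wild type, where the groups overlap.

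The S and M phase cyclins and Cdk1 had some of the widest differences without passing the test. Cdk1, the mitotic kinase, measured 5.24, 6.02 and 6.01 in double mutants, 5.34, 5.85 and 5.13 in single mutants, and 4.92 and 5.09 in wild type. Ccnb2, a B-type cyclin, measured 6.28, 7.16 and 6.85 in double mutants, 6.46, 7.30 and 5.76 in single mutants, and 5.76 and 5.86 in wild type. Ccna2, cyclin A, measured 5.39, 6.42 and 6.10 in double mutants, 5.66, 6.45 and 5.22 in single mutants, and 5.21 and 5.06 in wild type. Double mutants 2 and 3 and single mutant 2 were about alike for these genes, while single mutant 3 lay at the wild type level. With the sex term the differences of Cdk1, Ccnb2 and Ccna2 were 1.09 (adjusted p = 0.0743), 1.40 (adjusted p = 0.134) and 1.24 (adjusted p = 0.143) in double mutants.

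The difference of the licensing and fork genes from wild type was above 0 in double mutants for all 10 measured, as for 45.5% of all genes. Of these 10, all double mutants exceeded wild type for 6, where 15.0% of all genes did so. With the sex term 3 rose past the test, where 2.08% of all genes did. Mcm3, a subunit of the MCM helicase, measured 6.33, 6.16 and 6.28 in double mutants, 6.0, 6.0 and 5.96 in single mutants, and 5.65 and 5.82 in wild type. The 3 groups did not overlap, and female minus male was -0.03 (adjusted p = 0.93). The difference from wild type was 0.52 (SE 0.07, adjusted p = 0.0848) in double and 0.25 (SE 0.07, adjusted p = 0.214) in single mutants. Adding the sex term, Mcm3 rose by 0.54 (SE 0.09, adjusted p = 0.0375) in double mutants. Mcm4, of the same helicase, measured 6.65, 6.83 and 6.87 in double mutants, 6.66, 6.77 and 6.42 in single mutants, and 6.14 and 6.27 in wild type. In that fit it rose by 0.70 (SE 0.12, adjusted p = 0.0364) in double mutants and differed by 0.53 (SE 0.12, adjusted p = 0.0566) in single mutants. Both groups of mutants lay above wild type on every array for Mcm4.

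Mcm5, whose start region above holds an E2F element, measured 5.84, 6.07 and 6.38 in double mutants, 6.06, 6.67 and 5.70 in single mutants, and 5.63 and 5.60 in wild type. The male of each mutant group was its highest. Mcm5 rose by 0.89 (SE 0.17, adjusted p = 0.0451) in double and by 0.93 (SE 0.17, adjusted p = 0.0395) in single mutants with the sex term. Pcna, the sliding clamp of the polymerases, measured 7.85, 7.99 and 8.03 in double mutants, 7.92, 7.94 and 7.86 in single mutants, and 7.76 and 7.58 in wild type. Its 6 mutant values span a narrow range above wild type, with differences of 0.29 (SE 0.08, adjusted p = 0.196) in double and 0.24 (SE 0.08, adjusted p = 0.252) in single mutants. They were 0.34 (adjusted p = 0.089) and 0.29 (adjusted p = 0.121) with the sex term. Mcm6 differed most between the wild type mice, with 6.45, 5.92 and 6.76 in double mutants, 6.12, 6.30 and 6.0 in single mutants, and 6.22 and 5.30 in wild type. The loading factors Cdc6 and Cdt1, and Mcm2, differed from wild type by at most 0.19 in either mutant without the sex term, and all 3 Cdt1 values of single mutants lay below wild type. Cdt1 was the only one of the 38 genes to do so (2.63%, against 19.2% of all genes).

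Of the genes of nucleotide supply, both ribonucleotide reductase subunits measured above wild type on all 6 mutant arrays, without passing the test. Of all genes, 9.24% lay above wild type on all 6. Rrm1, the large subunit, measured 7.11, 7.18 and 6.91 in double mutants, 7.11, 7.0 and 7.02 in single mutants, and 6.76 and 6.67 in wild type. The differences were 0.35 (SE 0.09, adjusted p = 0.177) and 0.33 (SE 0.09, adjusted p = 0.191), or 0.25 and 0.22 with the sex term (adjusted p = 0.132 and 0.155). Rrm2, the subunit made in S phase, differed by 0.37 and 0.20, with adjusted p of 0.332 and 0.593, and by 0.53 and 0.36 with the sex term (adjusted p = 0.0815 and 0.185). A dimmer Rrm2 probe set, not used here, measured 4.31 to 4.35 in mutants and 4.32 and 4.29 in wild type, where the groups overlap. Tyms, thymidylate synthase, measured 6.58, 6.87 and 6.24 in double mutants, 6.33, 6.66 and 6.34 in single mutants, and 6.85 and 6.49 in wild type, where the groups overlap.

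The mitotic genes were dim in wild type, and for 10 of 12 all double mutants exceeded both wild type arrays (15.0% of all genes). All single mutants did so for 4 of 12 (15.5% of all genes), and the gap between these counts was not tested. Top2a, the topoisomerase that untangles sister chromosomes, measured 5.51, 5.93 and 6.21 in double mutants, 5.75, 6.26 and 4.99 in single mutants, and 4.79 and 4.87 in wild type. Top2a rose by 1.51 (SE 0.30, adjusted p = 0.0464) in double mutants with the sex term and differed by 1.29 (SE 0.30, adjusted p = 0.0604) in single mutants. Without it the difference was 1.05 (SE 0.37, adjusted p = 0.277) in double mutants. Both wild type values of Top2a were under the olfactory receptor level, so no fold is given. Brighter probe sets that name Top2a with Taf1d were not used, and in each of them the groups overlap. They measured 8.53 to 9.62 in double mutants, 8.48 to 9.17 in single mutants and 8.51 to 8.80 in wild type. Cdc20, which activates the anaphase-promoting complex, measured 5.39, 5.55 and 5.73 in double mutants, 5.46, 5.69 and 5.40 in single mutants, and 5.23 and 5.37 in wild type. It rose by 0.43 (SE 0.09, adjusted p = 0.047) in double mutants with the sex term, and its lowest mutant arrays lay just above wild type 2.

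Birc5, survivin of the chromosomal passenger complex, was above wild type mainly on the male mutant arrays. It measured 4.56, 4.69 and 5.21 in double mutants, 4.61, 5.13 and 4.40 in single mutants, and 4.53 and 4.50 in wild type. The mutant males measured 5.21 and 5.13, while the mutant females lay around wild type and under the olfactory receptor level. Given the sex term, it rose by 0.71 (SE 0.10, adjusted p = 0.0263) in double and by 0.61 (SE 0.10, adjusted p = 0.0309) in single mutants. That fit places an unmeasured wild type female at 3.91 for Birc5 and at 4.14 for Top2a, both under 4.20, the lowest value of the whole table.

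Tpx2, a spindle assembly factor, measured 5.61, 6.02 and 6.03 in double mutants, 5.53, 6.11 and 5.24 in single mutants, and 5.07 and 5.26 in wild type. Its difference with the sex term was 1.04 (SE 0.22, adjusted p = 0.054) in double mutants. Prc1, which bundles microtubules at the spindle midzone, measured 5.25, 5.80 and 5.49 in double mutants, 5.37, 6.01 and 5.03 in single mutants, and 4.95 and 4.96 in wild type. As with Top2a, single mutant 3 was the mutant nearest to wild type for both genes. The kinesin Kif11, the kinases Plk1, Aurka and Bub1, the checkpoint protein Bub1b and the centromeric histone Cenpa differed from wild type by 0.21 to 0.44 in double mutants and by 0.07 to 0.42 in single mutants, none past the test. Aurkb, the kinase of the passenger complex, measured 5.48, 5.37 and 5.54 in double mutants, 5.45, 5.68 and 5.03 in single mutants, and 5.51 and 5.53 in wild type, and was the only mitotic gene whose mean was below wild type in both mutants.

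Mki67 had the largest difference of all 38 genes in both mutants. It measured 6.63, 6.99 and 7.0 in double mutants, 6.45, 7.53 and 5.58 in single mutants, and 5.43 and 5.42 in wild type. Every mutant array was above wild type, single mutant 3 by little, and the 2 mutant groups overlapped. The means were 6.88 ± 0.21 (SD, n = 3) in double mutants, 6.52 ± 0.98 (SD, n = 3) in single mutants and 5.42 ± 0.01 (SD, n = 2) in wild type. In double mutants the difference was 1.45 (SE 0.51, adjusted p = 0.275), a fold of 2.73, and with the sex term by 2.02 (SE 0.46, adjusted p = 0.0604). In single mutants it was 1.09 (SE 0.51, adjusted p = 0.378), and with the sex term by 1.66 (SE 0.46, adjusted p = 0.0883). The factors Foxm1 and E2f1, which drive mitotic and S phase genes, differed from wild type by 0.23 and 0.22 in double mutants and by 0.28 and 0.17 in single mutants, and neither passed the test.

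**Figure D4:**
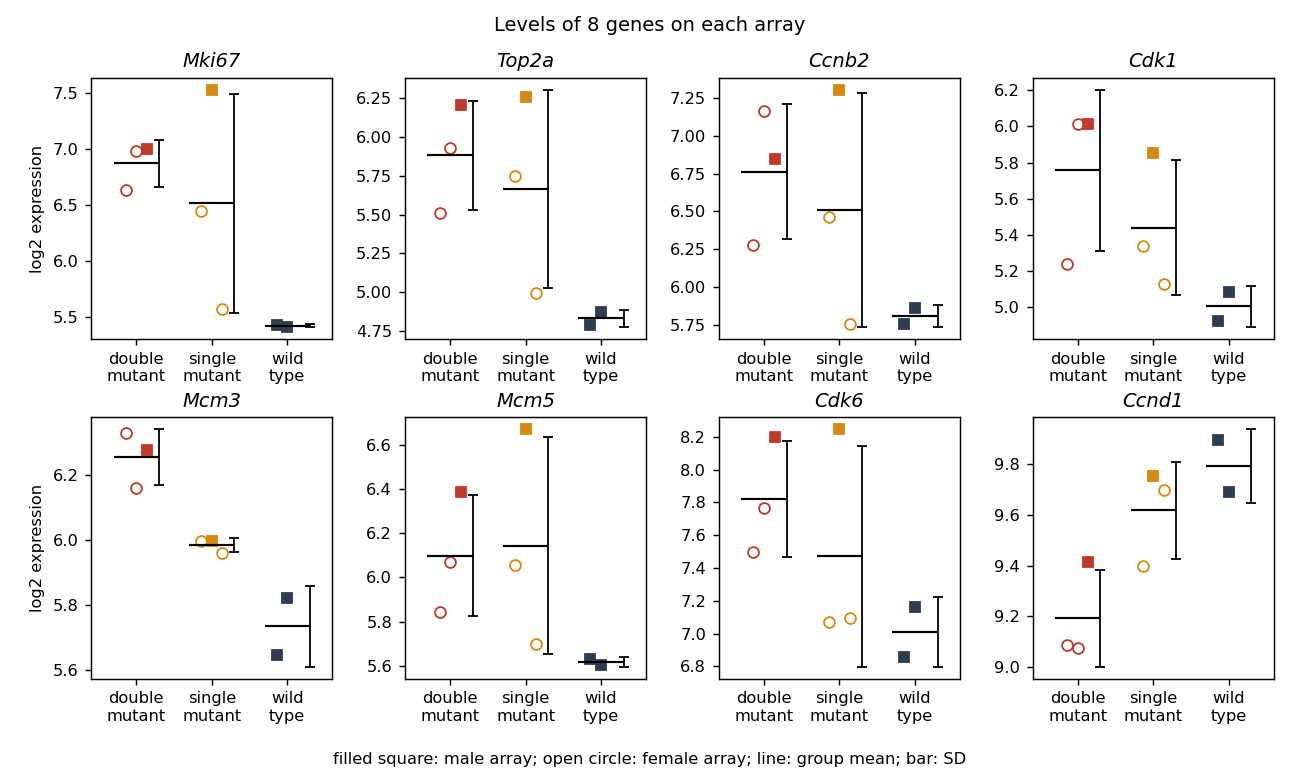
Log2 level of 8 genes on each array, with double mutants, single mutants and wild type from left to right, squares for male and open circles for female arrays, lines for group means and bars for SD. The single mutants spread widest for Mki67, Top2a, Ccnb2 and Cdk6, Mcm3 separates the 3 groups, and Ccnd1 is lowest in double mutants.

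The double mutants were not shown to differ from the single mutants. None of the 38 genes, and 0.0% of all genes, passed an adjusted p of 0.05 in limma, with or without the sex term. At an unadjusted p under 0.05, Mcm3 and Cdt1 were higher and Ccnd1 lower without the sex term, where 1.6% of all genes were higher and 1.6% lower. The difference was above 0 for 32 of 38 genes, as for 50.7% of all genes, with a median of 0.13. This median depended on single arrays. It was 0.02 without single mutant 3, 0.09 without single mutant 1, 0.23 without single mutant 2, and 0.08 without double mutant 2 or double mutant 3. Among females alone the median was 0.19, and between the male of each group it was -0.07. Mcm3 was the only gene with all double mutants above all single mutants (2.63%, against 3.32% of all genes), by 0.27 (SE 0.07, adjusted p = 1).

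The arrays also varied within the mutant groups. Of the 38 genes, 28, 34 and 33 were above both wild type arrays in double mutants 1, 2 and 3, and 26, 34 and 17 in single mutants 1, 2 and 3. Of all genes, 33.7% to 35.3% were above both on each mutant array, so single mutant 3, at 44.7%, was the nearest to that share. Single mutant 2, a male, was the highest of the 6 mutant arrays for 17 genes and double mutant 3, the other male, for 12. Single mutant 3, a female, was the lowest of the mutants for 23 genes. Counts of highest and lowest arrays over all genes are not given here. Over all genes, single mutant 2 also correlated least with wild type 1 (0.9499) and wild type 2 (0.9409). Female minus male was below 0 for 33 of 38 genes in the fit with the sex term, against 48.0% of all genes. Only Birc5 passed the test of that difference, at -0.61 (adjusted p = 0.0314), or 2.63%, where 0.334% of all genes were lower in females. With 1 male per mutant group, sex and the individual mouse cannot be told apart. No gene was called for a different sex effect between the mutant groups, as was none of all genes (0.0%), and at an unadjusted p under 0.05 only Tyms differed, where 11.6% of all genes did.

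Markers of macrophages, injured tubule and fibroblasts were also above wild type in the mutants, but did not follow these genes on every array. Levels of a list were summed before taking the log2, so the brightest genes of a list weigh most. The log2 of this sum for 12 macrophage genes, all above the olfactory receptor level, was 11.88, 12.13 and 11.89 in double mutants, 11.00, 12.56 and 10.87 in single mutants, and 9.99 and 10.16 in wild type. For 7 markers of injured tubule it was 11.32, 12.28 and 12.52 in double mutants, 11.09, 12.04 and 10.93 in single mutants, and 10.15 and 10.25 in wild type. For 8 fibroblast genes it ranged from 12.41 to 12.78 in double mutants, from 11.80 to 13.19 in single mutants, and from 10.78 to 10.97 in wild type. All 3 lists were above wild type on every mutant array, and among single mutants they were highest in single mutant 2. The summed level of Ccna2, Ccnb2 and Cdk1 was 7.30, 8.20 and 7.96 in double mutants, 7.49, 8.24 and 6.98 in single mutants, and 6.92 and 6.97 in wild type. In single mutant 3 it was thus at the wild type level, while the macrophage, fibroblast and injured tubule sums of that array were near those of single mutant 1. Lymphocyte genes ranged from 8.68 to 9.49 in double mutants, from 8.55 to 8.79 in single mutants and from 8.47 to 8.49 in wild type, with Cd3d, Cd2, Cd79a, Ms4a1 and Klrb1c among those under the olfactory receptor level. Proximal tubule genes ranged from 13.87 to 14.16 in double mutants, from 13.09 to 14.45 in single mutants and from 14.50 to 14.56 in wild type. The part of these cell types in the differences was not tested.

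**Figure D5:**
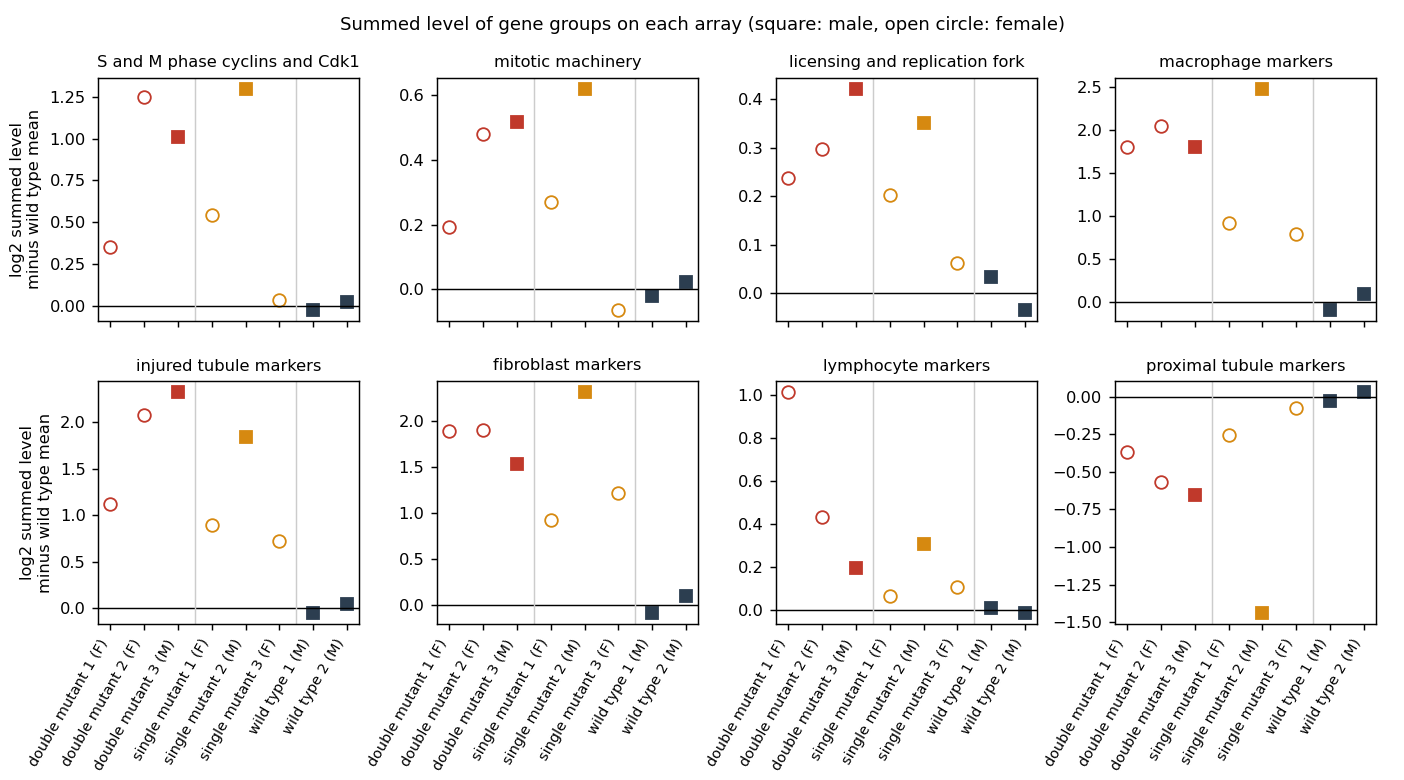
Log2 summed level of 3 role groups and 5 marker lists on each array as a difference from the wild type mean, double mutants first, then single mutants and wild type, with squares for male and open circles for female arrays. Single mutant 3 lies near wild type for the S and M phase cyclins and mitotic genes, but above it for macrophage, injured tubule and fibroblast markers.

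Other genes of the same pathways, taken from lists of known members, gave the following counts with the sex term, where 2.08% of all genes rose in double and 2.05% in single mutants. None was called in the comparison of the 2 mutants, and none in any comparison without the sex term. Of 47 other mitotic genes, 5 rose in double mutants (Nuf2, Incenp, Smc2, Cep55 and Tacc3) and 3 in single mutants (Nuf2, Cep55 and Tacc3). Without the sex term the difference was above 0 for 44 of the 47 in double mutants, against 45.5% of all genes, and for 43 in single mutants, against 46.5%. Tacc3, a spindle protein, measured 5.45, 5.73 and 6.19 in double mutants, 5.76, 6.37 and 5.45 in single mutants, and 5.52 and 5.39 in wild type, so double mutant 1 and single mutant 3 lay within wild type. Of 34 other replication genes, 5 rose in double mutants (Pole, Lig1, Chaf1a, Chaf1b and Uhrf1) and 6 in single mutants (Pola1, Pold1, Pole, Lig1, Chaf1a and Chaf1b). Chaf1b, of the complex that puts histones on new DNA, measured 5.74, 5.94 and 6.18 in double mutants, 5.74, 6.22 and 5.85 in single mutants, and 5.59 and 5.56 in wild type, with every mutant above wild type. The median difference of those 34 was 0.02 in double and 0.06 in single mutants, against -0.01 over all genes. Of 10 checkpoint and repair genes only Clspn rose, in double mutants.

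Regulators went both ways with the sex term, and none of them was called without it. Of 17 E2F, Rb and MuvB genes, E2f8 and Tfdp1 rose in both mutants, where 2.08% and 2.05% of all genes rose in double and single mutants. Rbl2, E2f5 and Lin52 fell in both, and Tfdp2 in double mutants, where 4.17% and 4.86% of all genes fell. Tfdp1, the partner of E2F factors, measured 7.92, 8.01 and 8.13 in double mutants, 7.92, 8.29 and 7.81 in single mutants, and 7.54 and 7.68 in wild type. Lin52, a MuvB subunit, measured 7.28, 7.19 and 6.87 in double mutants, 7.03, 6.83 and 7.40 in single mutants, and 7.74 and 7.71 in wild type. Neither gene overlapped with wild type in either mutant. Rbl2, the p130 protein of the DREAM complex, fell by 0.71 (SE 0.10, adjusted p = 0.0291) in double and by 0.60 (SE 0.10, adjusted p = 0.0351) in single mutants with the sex term. Without it the differences of Rbl2 were -0.38 (adjusted p = 0.501) and -0.27 (adjusted p = 0.622).

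None of 12 CDK inhibitors and p53 arrest targets was called, but 6 of 12 had all single mutants below both wild type mice, against 19.2% of all genes. No such gene was found for double mutants, against 19.1%, and for 4 of 12 all double mutants exceeded all single mutants, against 3.32%. Cdkn1a, the p21 inhibitor, measured 8.15, 8.87 and 7.55 in double mutants, 6.83, 7.74 and 7.03 in single mutants, and 8.65 and 8.22 in wild type. The single mutants lay below wild type without overlap, by -1.24 (adjusted p = 0.262), while the double mutants spanned it. Cdkn1b, the p27 inhibitor, measured 7.18, 6.99 and 6.63 in double mutants, 6.97, 6.97 and 7.07 in single mutants, and 6.77 and 7.09 in wild type, where the groups overlap.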

How the data were processed

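Total RNA of 8 kidneys was measured on 1 array each. The labels name a labelling kit meant for small RNAs, whereas the probe sets belong to a gene array of whole transcripts. The values were taken as gene expression, and this mismatch is unresolved. The deposited values are log2 expression values of 33793 probe sets from the authors' processed table, with the unit read from their range (4.20 to 13.43). Their normalization: not given in the sources used here. Probe sets that name 1 gene were kept, and the one with the highest mean was used where a gene had several, which left 22180 genes with no filter on level. The labels number the mice per genotype, so replicates are separate mice.

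Groups were compared with limma 3.58.1 (lmFit and eBayes, R 4.3.3) in 1 model of the 3 groups, with 5 residual degrees of freedom, or 4 with a term for sex. P values were two-sided, adjusted by Benjamini-Hochberg over all genes and called under 0.05. All 40 genes may be named, and of the other lists the called genes plus Cdkn1a and Cdkn1b. The genes, lists and tests were chosen with earlier results of these data known. Other settings were level filters, normalizations, variance models, a replicate block and leaving out each array. The fit was tested on simulated data. Promoter windows are RefSeq's on GRCm38.p6, and figures were drawn with matplotlib 3.10.9. The osteopontin gene is not reported here.

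Deviations from the group means of same-numbered arrays correlated between -0.50 and 0.16. Single mutants 2 and 3 differ in read sex from the double mutants of the same number. The correlations therefore cannot tell whether replicate numbers pair the arrays.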

Additional observations from a re-analysis of the deposited data

How the results depend on the processing

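The median differences kept their direction under every setting, except double minus single mutants among males alone (-0.07), but their size moved with single arrays, as given above. With the sex term, the count of genes called in double mutants (7) was 2 with array weights and 0 with only the 2 groups compared. It was 1 with a filter at the 75th percentile, which leaves 7 of the 38 genes, and 8 with a filter at the 50th, which leaves 33. It was 9 with an intensity trend and robust prior, 5 with cyclic loess or quantile normalization, and 0 to 3 with each array left out. In single mutants (3) it was 0 with array weights, 6 with a filter at the 50th percentile, 1 at the 75th, 5 with an intensity trend and robust prior, 1 with only the 2 groups compared, and 0 to 4 with each array left out. Without the sex term, the count in double mutants (0) was 1 with array weights (Mcm3), 1 with only the 2 groups compared (Mki67) and 0 to 1 with each array left out (Mcm3, without single mutant 2). The cause of these changes was not tested beyond the number of genes and arrays each leaves.

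Counts over all genes with the sex term also moved. In double mutants 462 rose and 925 fell, against 597 and 587 with cyclic loess, 573 and 731 with quantile normalization, 236 and 431 with array weights, 748 and 1379 with the filter at the 50th percentile, and none with only the 2 groups compared. In single mutants 455 rose and 1077 fell, against 629 and 729 with cyclic loess, 637 and 859 with quantile normalization, 130 and 347 with array weights, 755 and 1560 with the filter at the 50th percentile, and 843 and 727 with only the 2 groups compared. With an intensity trend and robust prior, 665 rose and 959 fell in double mutants, and 535 rose and 1055 fell in single mutants. Without the sex term, array weights called 221 higher and 246 lower genes in double mutants, against 3 and 7. These counts were 201 and 115 with only the 2 groups compared, and 412 and 297 without single mutant 2.

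With the replicate number as a block and the sex term, 5 genes were called in double mutants (Birc5, Cdk6, Mcm5, Mki67 and Tpx2) and 4 in single mutants (Cdk6, Mcm5, Mki67 and Tpx2). Of all 22180 genes, 380 rose and 794 fell in double mutants, and 354 rose and 828 fell in single mutants. Without the sex term the block called none, and the median differences were 0.30 and 0.25. Dim signal limits the 7 genes not above the olfactory receptor level in wild type, and 2 wild type arrays limit every comparison.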
